A study of Rattus norvegicus with 6 samples.

Results

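The ADAM, ADAMTS, ADAMTSL, MMP and TIMP genes were examined in primary vascular smooth muscle cells (VSMCs) that calcify in culture. Members were the genes of the authors' table whose symbol is Adam, Adamts, Adamtsl, Mmp or Timp followed by a number. This gave 42 of 13526 genes, of which 9 were Adam, 14 Adamts, 4 Adamtsl, 13 Mmp and 2 Timp genes. RNA was sequenced from 3 samples of the OM plus EMPA group and 3 samples of the OM group. The OM plus EMPA group received 1 μM empagliflozin, an inhibitor of the glucose transporter SGLT2, in osteogenic media (OM), and the OM group received OM alone. Both groups were wild-type VSMCs of the rat thoracic aorta, and their OM contained 10 mM β-GP and 3.5 mM CaCl2. The labels give 5 days of culture, while the paper's legend gives a shorter time. The sample titles call the medium Pi, but the treatment protocol and the paper give OM. The VSMCs were passaged explant cultures from male rats. Neither the labels nor the methods tie a sample to its own culture or animal, so the p-values reflect no more than the spread among these 6 samples, and that spread may be technical. Cells without OM were not analysed here.

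MMPs and ADAMTS proteases are zinc-dependent enzymes that cut matrix proteins outside the cell. ADAM proteases sit mostly in the cell membrane, where active members release the outer part of other surface proteins. TIMPs are secreted proteins that block these enzymes, and ADAMTSL proteins resemble ADAMTS proteases but lack the protease domain. In the artery wall these families remodel elastin, collagen and proteoglycans, and vascular calcification takes place in that matrix.

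TPM is a transcript level per length. Its total was about the same in every library (997954 to 998293), so the depth behind each value is unknown. OM plus EMPA replicate 1 stood apart from the other libraries on the second principal component (17.63, against -9.35 to 5.59 in the others). Mitochondrial transcripts held 10.3 to 10.88% of the TPM in OM plus EMPA libraries and 8.0 to 9.69% in OM libraries. Of 12 smooth muscle markers 11 were listed and 10 were tested. Of these 5, including Acta2 and Tagln, rose with empagliflozin, against 2.06% of all tested genes. Tpm1, Tpm2, Mylk, Smtn and Myh11 were tested and had no call. Among them Myh11 alone had a lower mean with empagliflozin (log2 fold change -0.17, adjusted p = 0.455 from limma). The listed markers summed to 3850 to 4440 TPM in OM plus EMPA libraries and 2900 to 3485 TPM in OM libraries. Of 14 macrophage and leukocyte markers 3 (Cd68, Cd14 and Fcer1g) were listed, with a summed level of 145 to 152 TPM against 153 to 162 TPM, and Cd68 fell (log2 fold change -0.83, adjusted p = 0.0378 from limma). Of 10 endothelial markers 1 (Erg) was listed, at 2.79 to 3.89 TPM against 1.70 to 3.89 TPM, and the 8 of 10 fibroblast markers listed summed to 1485 to 1523 TPM against 1434 to 1518 TPM. Of the 7 fibroblast markers tested, Scara5 rose (log2 fold change 0.59, adjusted p = 0.00575 from limma) and Pdgfra fell (-0.35, adjusted p = 0.0488 from limma). Pdgfra lost its call when the libraries were scaled by their median ratio (adjusted p = 0.093 from limma). For comparison, 2.06% of all tested genes rose and 4.86% fell. The part of these markers in the results on the 42 genes was not tested, and in bulk RNA fewer cells of a type and less RNA per cell cannot be told apart. For the mitochondrial share, the libraries were also scaled without mitochondrial genes, with the counts given at the end. Its part beyond this scaling was not tested.

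Sequences before the transcription start were taken from RefSeq (GRCr8) for the 30 members that matched by symbol. The 250 bases before the start of Adamts1, which had the highest ratio of the members called different between the groups, and of Mmp3 and Mmp13, which had the lowest ratios of all members, are shown 5′ to 3′ on the strand of the gene. Capitals mark TATAAA, letters that match the TATA box, an element that can position the transcription start. In Mmp3 and Mmp13 they also mark TGANTCA, the site bound by AP-1 factors.
Adamts1 (GRCr8, chr11:38427385-38427634, minus strand): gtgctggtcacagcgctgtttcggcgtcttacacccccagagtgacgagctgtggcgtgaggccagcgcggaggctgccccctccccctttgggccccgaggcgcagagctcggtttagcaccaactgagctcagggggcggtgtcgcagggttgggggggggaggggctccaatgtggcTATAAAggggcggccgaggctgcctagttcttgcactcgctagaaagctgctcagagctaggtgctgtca
Mmp3 (GRCr8, chr8:12925031-12925280, plus strand): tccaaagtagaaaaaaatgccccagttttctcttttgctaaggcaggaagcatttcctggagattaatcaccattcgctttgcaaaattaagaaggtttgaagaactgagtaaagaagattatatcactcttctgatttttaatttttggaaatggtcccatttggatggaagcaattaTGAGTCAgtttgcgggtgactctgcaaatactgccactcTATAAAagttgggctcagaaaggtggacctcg
Mmp13 (GRCr8, chr8:12782579-12782828, plus strand): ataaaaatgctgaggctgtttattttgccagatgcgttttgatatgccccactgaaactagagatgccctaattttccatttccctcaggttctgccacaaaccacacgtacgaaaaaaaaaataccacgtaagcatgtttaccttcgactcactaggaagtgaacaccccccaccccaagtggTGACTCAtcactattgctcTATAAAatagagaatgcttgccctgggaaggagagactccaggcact

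TGANTCA, a motif that reads the same on both strands, lay before Mmp3 (71 bases before the start), Mmp13 (66 bases) and Adam19 (169 bases). These were 3 of 39 windows of the members (7.69%), against 6.34% of all 33469 windows of this length. TATAAA on the strand of the gene, searched after the sequences were seen, lay before Adamts1 (70 bases before the start), Mmp3 (32 bases) and Mmp13 (47 bases). These were again 3 of 39 windows (7.69%), against 8.06% of all windows. Whether these matches position the start was not tested. A loose NF-κB motif, GGG and CC on either strand with 5 bases between them, was in 23 of 39 windows (59.0%), against 42.3% of all windows. In the sequences shown TGANTCA and TATAAA did not overlap, and a match is a description of the letters only. Adam9, Adam23, Adam33, Adamts5, Adamts8, Adamts15, Mmp2, Mmp9, Mmp14, Mmp16, Mmp17 and Mmp19 had no entry.

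The members ranged from transcripts near 0 to some of the most abundant of the cells, and a few transcripts held much of each family's level. Over all libraries 5 members averaged at least 100 TPM, 20 averaged 10 to 100 TPM, 9 averaged 1 to 10 TPM and 8 less than 1 TPM. Mmp2, the gelatinase that degrades basement membrane and denatured collagen, was higher than 99.6% of all genes and made up 70.0% of the summed Mmp level. Timp1 made up 99.2% of the summed level of Timp1 and Timp3. Adam12 held 37.5% of the Adam level and Adamtsl5 48.6% of the Adamtsl level. Adamts1 held 27.0% of the Adamts level over all libraries, but was the highest Adamts transcript only in the OM plus EMPA group (126 TPM, against 71.2 TPM for Adamts8), while Adamts8 was the highest in the OM group (107 TPM, against 64.3 TPM for Adamts1). The 8 members below an average of 1 TPM, which were not tested, were Adam1a, Adam23, Adamts3, Adamts15, Mmp9, Mmp13, Mmp25 and Mmp28.

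**Figure D1:**
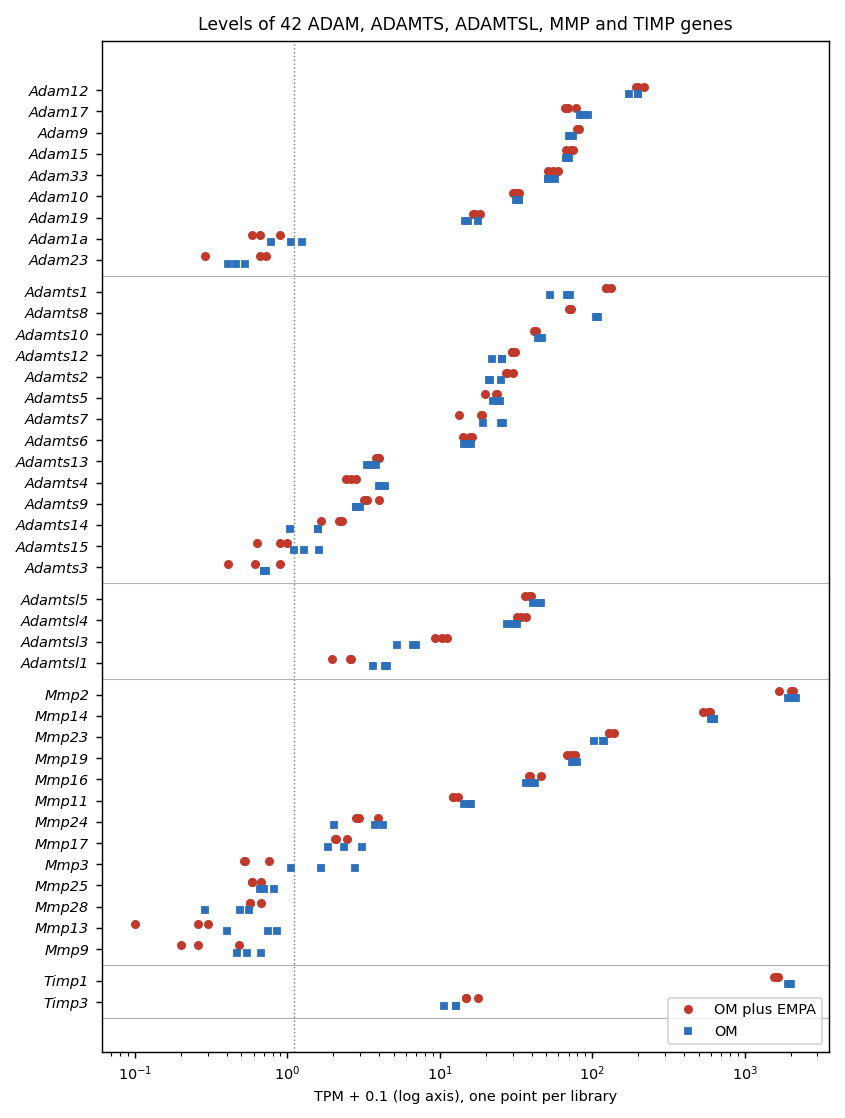
TPM + 0.1 on a log axis of each of the 42 members, with 1 point per library, circles for OM plus EMPA above squares for OM, and a dotted line at 1 TPM. Mmp2 and Timp1 lie between 1547 and 2181 TPM in every library, 8 members average less than 1 TPM, and the circles and squares of Adamts1 and Adamts8 are apart.

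OM plus EMPA and OM libraries were set against each other in limma on log2(TPM + 1), a scale on which low genes appear to change less than they do, over the 12564 genes with an average of at least 1 TPM. A gene is said to have risen or fallen with empagliflozin where its p, adjusted by Benjamini-Hochberg over these genes, did not exceed 0.05. Of the 34 tested members 3 rose (Adamts1, Adamts12 and Adamtsl3) and 5 fell (Adamts8, Adamts4, Adamtsl1, Timp1 and Adam17). These are 23.5% of the tested members, against 6.92% of all tested genes (2.06% higher and 4.86% lower). The median log2 fold change of the tested members was 0.01, that of all tested genes -0.05. In 20 of the 34 the libraries of the groups did not overlap, with the OM plus EMPA group above in 9 and below in 11. Over all tested genes 30.4% did not overlap (7.85% above and 22.5% below). After scaling the libraries by their median ratio, 6 members rose and 3 fell, against 6.14% of all genes called either way. Adam9, Adamts2 and Mmp23 then rose, and Timp1 (adjusted p = 0.0524 from limma) and Adam17 (adjusted p = 0.11 from limma) no longer passed. Each library mattered to these counts. Without OM plus EMPA replicate 1, 2 or 3 there were 2, 1 and 1 higher and 1, 1 and 3 lower members, and without OM replicate 1, 2 or 3 there were 2, 3 and 1 higher and 2, 3 and 1 lower. Adamts1 and Adamts8 passed in each of these 6 fits.

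**Figure D2:**
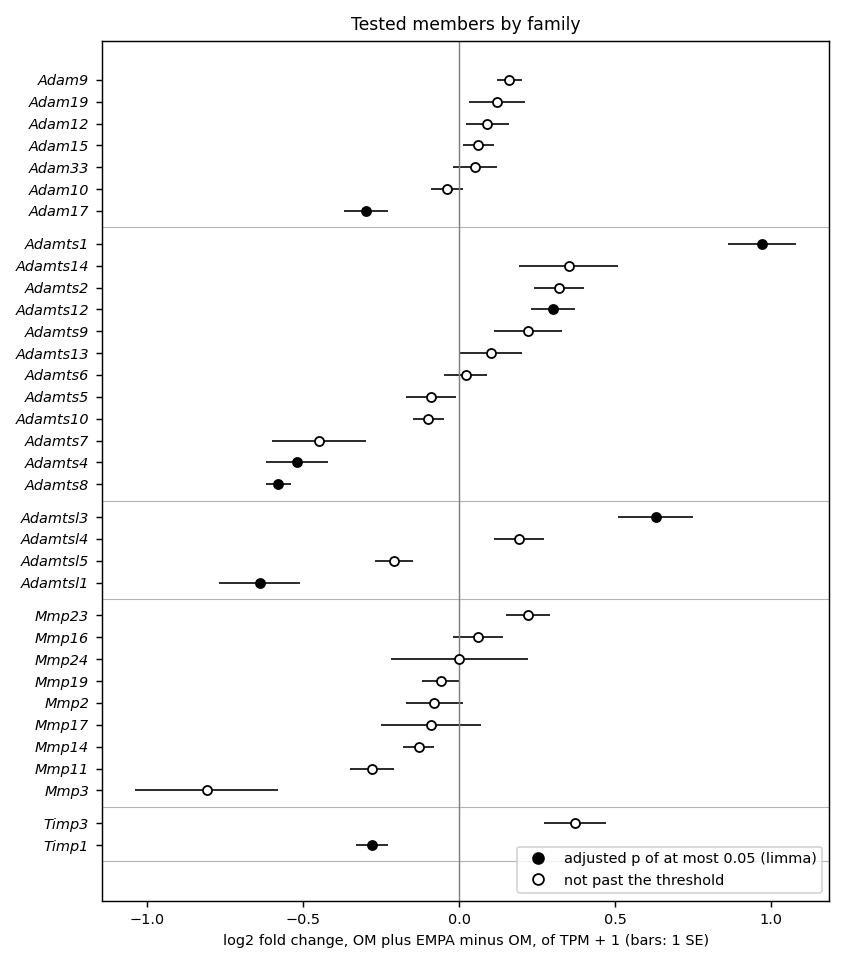
Difference in log2(TPM + 1) between OM plus EMPA and OM for the 34 tested members by family, with bars of 1 SE and filled points for members that rose or fell. Adamts1 lies highest at 0.97, and Mmp3 lowest at -0.81 with the widest error bar, 0.23.

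By family, calls fell in Adamts (2 higher and 2 lower of 12 tested), Adamtsl (1 and 1 of 4), Timp (0 and 1 of 2) and Adam (0 and 1 of 7), and 0 of 9 tested Mmp genes passed. Of these Mmp genes 4 (Mmp3, Mmp11, Mmp14 and Mmp23) had an unadjusted p under 0.05 in limma, 1 of them higher and 3 lower, against 24.1% of all tested genes (6.42% higher and 17.6% lower). Under median-ratio scaling 1 (Mmp23) passed. The summed level of Timp1 and Timp3 was 1562, 1655 and 1676 TPM in OM plus EMPA libraries, against 2014, 1923 and 1968 TPM in OM libraries. These did not overlap, and the ratio of the group means was 0.829. The Adamts genes together stood at 365 ± 3.28 TPM with empagliflozin, against 339 ± 14.8 TPM without (SD, n = 3 each), also with no overlap. Without Adamts1 and Adamts8 this was 168 ± 2.61 TPM against 168 ± 4.60 TPM (SD, n = 3 each), a difference smaller than the spread. Ratios of the group means were 1.02 for Adam, 1.00 for Adamtsl and 0.948 for Mmp, with overlapping libraries in each.

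Adamts1 and Adamts8, the members whose calls held without any 1 library, encode ADAMTS proteoglycanases, enzymes that cut aggrecan and versican, the large proteoglycans of cartilage and of the vessel wall. Adamts1 was at 122, 122 and 132 TPM in OM plus EMPA libraries, against 52.8, 71.8 and 68.4 TPM in OM libraries. The lowest library with empagliflozin stood well above the highest without it. Adamts1 rose 1.95-fold (log2 fold change 0.97 with an SE of 0.11, limma adjusted p = 0.0045). Adamts8, a proteoglycanase that also has antiangiogenic activity, was at 70.0, 72.4 and 71.1 TPM against 107, 106 and 109 TPM. The replicates of each group lay within 3 TPM of each other and the groups were far apart. Adamts8 had a log2 fold change of -0.58 (SE 0.04, adjusted p = 0.00165 from limma), which lay between -0.59 and -0.52 under the alternatives run. Adamts4, known as aggrecanase-1, was low, at 2.33, 2.53 and 2.71 TPM against 3.93, 4.28 and 3.92 TPM. Adamts4 fell (log2 fold change -0.52 with an SE of 0.1, limma adjusted p = 0.0265), and it lost the call when any 1 library was left out (adjusted p = 0.0549 to 0.0803 from limma).

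The other proteoglycanases did not pass or were not tested. Adamts5, known as aggrecanase-2 and the main aggrecanase of mouse cartilage, was at 22.3 ± 2.18 TPM with empagliflozin, against 23.8 ± 1.39 TPM without (SD, n = 3 each), with overlapping libraries. Adamts9, which cuts versican, was at 3.24, 3.92 and 3.10 TPM against 2.73, 2.90 and 2.73 TPM (adjusted p = 0.278 from limma). Adamts15 was at 0.79, 0.89 and 0.53 TPM against 1.01, 1.51 and 1.19 TPM and was not tested. The summed level of the 6 proteoglycanases was 226 ± 3.63 TPM with empagliflozin, against 203 ± 12.1 TPM without (SD, n = 3 each), while its make-up differed. Adamts1 was 54.9, 54.3 and 57.6% of this sum in OM plus EMPA libraries, against 27.9, 34.0 and 32.6% in OM libraries. Adamts8 was 31.5, 32.1 and 31.0%, against 56.3, 50.2 and 51.8%. Adamts1 was thus the leading proteoglycanase transcript in each OM plus EMPA library and Adamts8 in each OM library, and the ratio of Adamts1 to Adamts8 was 1.77 ± 0.0859 against 0.601 ± 0.095 (SD, n = 3 each).

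**Figure D3:**
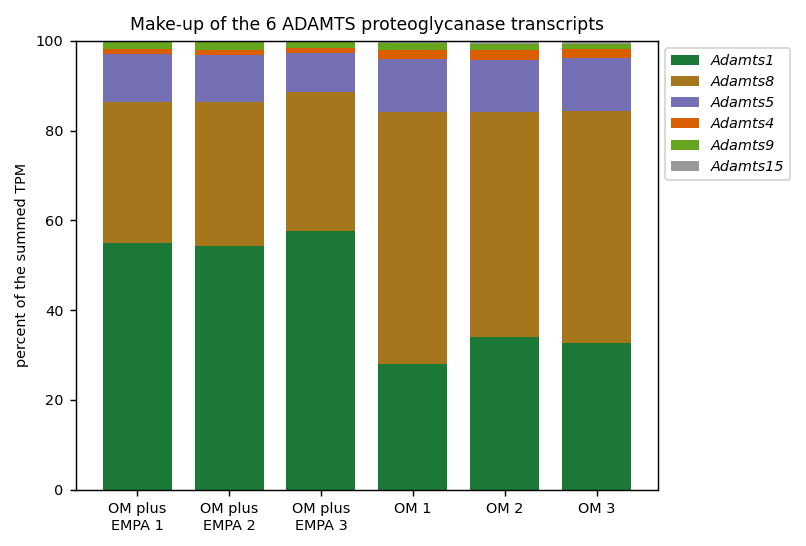
Percent of the summed TPM of 6 ADAMTS proteoglycanase genes held by each of them, with 1 bar per library, OM plus EMPA on the left and OM on the right. Adamts1 takes 54.3 to 57.6% of the bars with empagliflozin and 27.9 to 34.0% of those without, and Adamts8 takes 31.0 to 32.1% and 50.2 to 56.3%.

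These genes lie in pairs in the authors' table, for which no source here names the genome build. Adamts1 (chromosome 11, 24931761 to 24941103, minus strand) lies 59.5 kb from Adamts5, on the same strand. Adamts1 rose and Adamts5, its neighbour, did not pass the test. Adamts8 (chromosome 8, 29349114 to 29368404, plus strand) lies 17.9 kb from Adamts15, which is on the minus strand, so that the genes point away from each other. In both the OM plus EMPA libraries were below all OM libraries. Mmp13 and Mmp3 lie 132 kb apart on chromosome 8, both on the plus strand, and in both the OM plus EMPA libraries were again below all OM libraries. Of all tested genes, 22.5% likewise had OM plus EMPA below OM with no overlap. Adamts15 and Mmp13 were low and not tested, and whether neighbours change together was not tested. Of the members that passed, Adamtsl3 overlaps Saxo2 in RefSeq, Timp1 overlaps Syn1, and Adamts8 and Adam17 overlap noncoding RNA genes, while Timp3 overlaps Syn3 and Mmp11 overlaps Chchd10 among the others. No source here says whether counting used the strand, so these values are uncertain where reads were shared.

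The ADAMTS procollagen N-propeptidases, which trim the amino end of fibrillar procollagens, were led by Adamts2. It was at 27.5, 30.2 and 27.0 TPM with empagliflozin, against 21.1, 25.3 and 21.0 TPM in the OM group. The groups did not overlap, but Adamts2 did not pass the test (log2 fold change 0.32, adjusted p = 0.0636 from limma). Under median-ratio scaling it passed (0.38, adjusted p = 0.0456 from limma). Adamts14 was at 1.55, 2.17 and 2.07 TPM against 1.49, 1.49 and 0.94 TPM (adjusted p = 0.228 from limma), and Adamts3 stayed below 1 TPM in each library.

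Adamts12 and Adamts7 both cut cartilage oligomeric matrix protein (COMP), and ADAMTS7 is known from the mouse and from human genetics for its role in atherosclerosis. Adamts12 was at 31.2, 29.6 and 29.7 TPM in OM plus EMPA libraries and at 22.0, 25.6 and 25.6 TPM in OM libraries. It rose (log2 fold change 0.30 with an SE of 0.07, limma adjusted p = 0.0462), close to the threshold, and lost the call with no filter on low values and without any 1 library (adjusted p = 0.0631 to 0.12 from limma). Adamts7 was at 18.9, 13.3 and 18.4 TPM against 25.7, 19.2 and 25.3 TPM. These did not overlap, though the highest OM plus EMPA library and the lowest OM library were 18.9 and 19.2 TPM, and Adamts7 did not pass (log2 fold change -0.45, adjusted p = 0.124 from limma). Their summed level was 47.1 ± 3.76 TPM against 47.8 ± 2.98 TPM (SD, n = 3 each), and their substrate Comp, at 4.14 to 5.07 TPM against 4.57 to 6.33 TPM, had no call.

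Adamts6 and Adamts10, which are linked to fibrillin microfibrils, had no call. Adamts10 was at 42.1, 43.0 and 41.4 TPM against 44.3, 47.1 and 44.0 TPM, a small difference with no overlap (log2 fold change -0.10, adjusted p = 0.267 from limma). Adamts6 was at 15.3 ± 1.08 TPM against 15.0 ± 0.801 TPM (SD, n = 3 each). Adamts13, the protease of von Willebrand factor that is made mainly in liver, was at 3.78 ± 0.095 TPM against 3.45 ± 0.24 TPM (SD, n = 3 each).

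Of the 4 ADAMTSL genes, whose proteins sit in the matrix without cutting it, Adamtsl3 rose, Adamtsl1 fell and Adamtsl4 and Adamtsl5 did not pass. Adamtsl3 was at 9.15, 11.0 and 10.2 TPM with empagliflozin and at 5.17, 6.86 and 6.59 TPM in the OM group. The groups did not overlap and Adamtsl3 rose 1.63-fold (log2 fold change 0.63 with an SE of 0.12, limma adjusted p = 0.0213). It lost the call without OM replicate 3 or OM plus EMPA replicate 2 or 3 (adjusted p up to 0.0799 from limma). Adamtsl1, also called punctin, was at 1.86, 2.50 and 2.46 TPM against 3.53, 4.28 and 4.43 TPM. The highest library with empagliflozin was below the lowest OM library. Adamtsl1 fell (log2 fold change -0.64 with an SE of 0.13, limma adjusted p = 0.0305), and kept the call only without OM replicate 1 (adjusted p = 0.0491 to 0.1 from limma over the libraries left out). Adamtsl4, which binds fibrillin, was at 34.3 ± 2.34 TPM against 29.8 ± 2.42 TPM, and Adamtsl5 was at 38.0 ± 1.51 TPM against 44.1 ± 2.95 TPM (SD, n = 3 each). Neither passed (adjusted p = 0.172 and 0.0901 from limma).

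**Figure D4:**
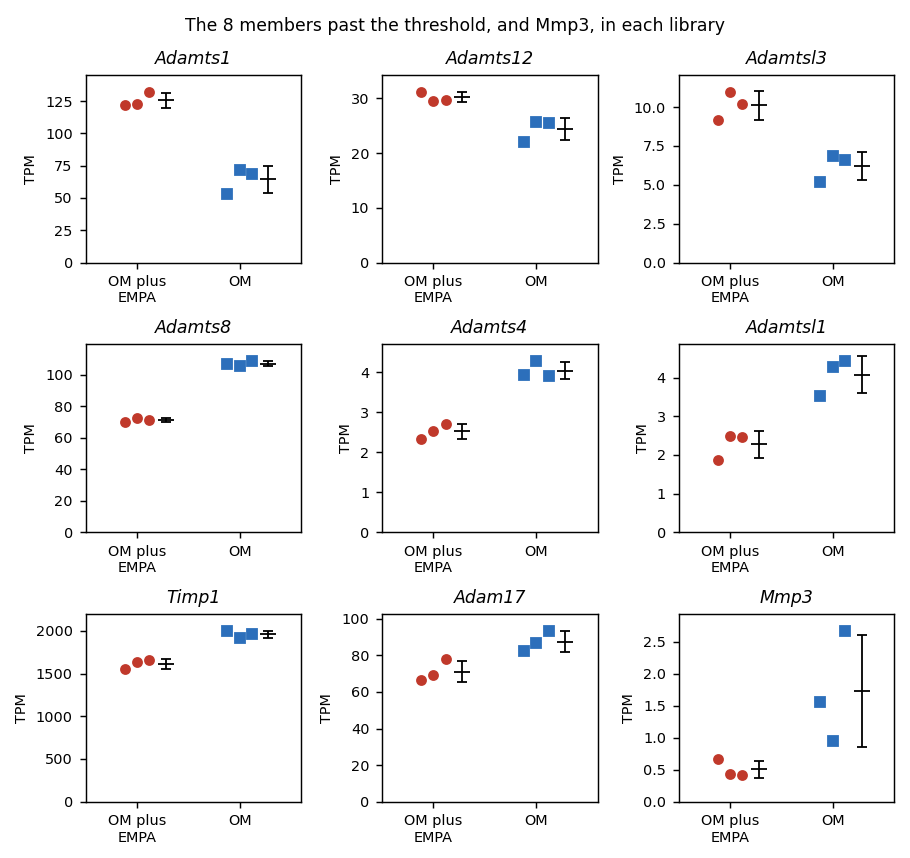
TPM of the 8 members that passed the test, and of Mmp3, in each library, with OM plus EMPA as circles on the left and OM as squares on the right, and black bars for the mean and SD of 3 libraries. Each of the 9 panels shows groups that do not overlap, and the OM libraries of Mmp3 are spread from 0.95 to 2.67 TPM.

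Timp1, a secreted inhibitor of most MMPs that is induced by inflammatory cytokines, was among the most abundant transcripts of the cells. Timp1 was at 1547, 1638 and 1661 TPM in OM plus EMPA libraries, against 2001, 1911 and 1958 TPM in OM libraries. The 3 libraries with empagliflozin were all lower. Timp1 fell to 0.826 of its OM level (log2 fold change -0.28 with an SE of 0.05, limma adjusted p = 0.0188). Besides the loss under median-ratio scaling, the call was lost without OM replicate 1 or 3 or OM plus EMPA replicate 1 or 2 (adjusted p up to 0.0744 from limma). Timp3, which binds the matrix and also inhibits ADAM17 and ADAMTS proteases, was at 14.8, 17.6 and 14.8 TPM against 12.7, 12.6 and 10.6 TPM. The groups did not overlap, with Timp3 on the opposite side to Timp1, and it did not pass (log2 fold change 0.37, adjusted p = 0.0673 from limma). The ratio of the summed level of Timp1 and Timp3 to the summed Mmp level was 0.543, 0.667 and 0.570 against 0.697, 0.686 and 0.645, which overlap. Timp2 and Timp4 were not listed under their symbols, so this is not a ratio for the whole Timp family.

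The abundant MMP genes differed little between the groups. Mmp2 was at 2025, 1691 and 2083 TPM with empagliflozin, against 2031, 1916 and 2181 TPM in the OM group. These overlap, and OM plus EMPA replicate 2 was the lowest (log2 fold change -0.08, adjusted p = 0.607 from limma, and 0.01 without that library). Mmp14, the membrane-bound protease that activates the Mmp2 proenzyme, was at 576, 534 and 589.5 TPM against 602, 630.1 and 629.6 TPM. The groups did not overlap and Mmp14 did not pass (log2 fold change -0.13 with an SE of 0.05, limma adjusted p = 0.161). Mmp23 was at 139, 129 and 128 TPM against 119, 118 and 102 TPM. It had a log2 fold change of 0.22 (adjusted p = 0.0925 from limma) and passed under median-ratio scaling (0.28, adjusted p = 0.0407 from limma). Mmp19 was at 72.7 ± 4.22 TPM against 75.7 ± 2.88 TPM and Mmp16, a further membrane-bound MMP, at 41.2 ± 4.30 TPM against 39.3 ± 2.62 TPM (SD, n = 3 each). Mmp11, a stromelysin that furin activates inside the cell, was at 13.2, 12.2 and 12.2 TPM against 15.8, 16.0 and 14.4 TPM, with no overlap and just outside the threshold (log2 fold change -0.28, adjusted p = 0.0561 from limma).

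The inducible stromelysin and collagenase genes were low in these cells. Mmp3, stromelysin-1, was at 0.66, 0.43 and 0.42 TPM in OM plus EMPA libraries and at 1.56, 0.95 and 2.67 TPM in OM libraries. The OM libraries were spread widely but all lay above the others. Mmp3 was tested only through its level in the OM group, and did not pass (log2 fold change -0.81 with an SE of 0.23, limma adjusted p = 0.082). It passed without OM replicate 2 (adjusted p = 0.0406 from limma). Mmp13, the collagenase of hypertrophic cartilage and bone, was listed at 0.20, 0.00 and 0.16 TPM against 0.65, 0.30 and 0.75 TPM, and was not tested. Both genes, whose upstream sequences are printed above, thus had smaller values in each OM plus EMPA library than in any OM library and stayed under 3 TPM throughout. Mmp9, the gelatinase of leukocytes, was at 0.10, 0.16 and 0.38 TPM against 0.44, 0.37 and 0.57 TPM. Mmp17 and Mmp24, at 1.74 to 4.13 TPM in all libraries, had no call, and Mmp25 and Mmp28 stayed below 1 TPM.

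Of the ADAM genes, Adam17, which encodes the enzyme that releases TNF-α and EGF receptor ligands from the cell surface, was lower with empagliflozin. Adam17 was at 66.6, 69.2 and 77.8 TPM in OM plus EMPA libraries, against 82.5, 86.8 and 93.5 TPM in OM libraries. The groups did not overlap. Adam17 fell (log2 fold change -0.30 with an SE of 0.07, limma adjusted p = 0.0484), just inside the threshold, and it lost the call with no filter, under each other scaling and without any library but OM plus EMPA replicate 3 (adjusted p up to 0.147 from limma). Adam10, the related sheddase of Notch receptors, was at 33.0, 29.99 and 31.4 TPM against 32.8, 31.6 and 32.8 TPM. These overlapped, with a log2 fold change of -0.04 (adjusted p = 0.679 from limma) that was 0.01 under median-ratio scaling. Adam9 was at 81.2, 79.9 and 79.0 TPM against 70.1, 70.9 and 74.4 TPM. It had a log2 fold change of 0.16 (adjusted p = 0.0704 from limma) and passed under median-ratio scaling (0.21, adjusted p = 0.0294 from limma). Adam12, an ADAM of mesenchymal cells and the most abundant one here, was at 192, 199 and 218 TPM against 173, 199.7 and 201 TPM. Adam15, Adam19 and Adam33 had log2 fold changes of 0.06, 0.12 and 0.05, with overlapping libraries and no call. Adam1a and Adam23, known from sperm and brain, were at or below 1.15 TPM in each library.

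**Figure D5:**
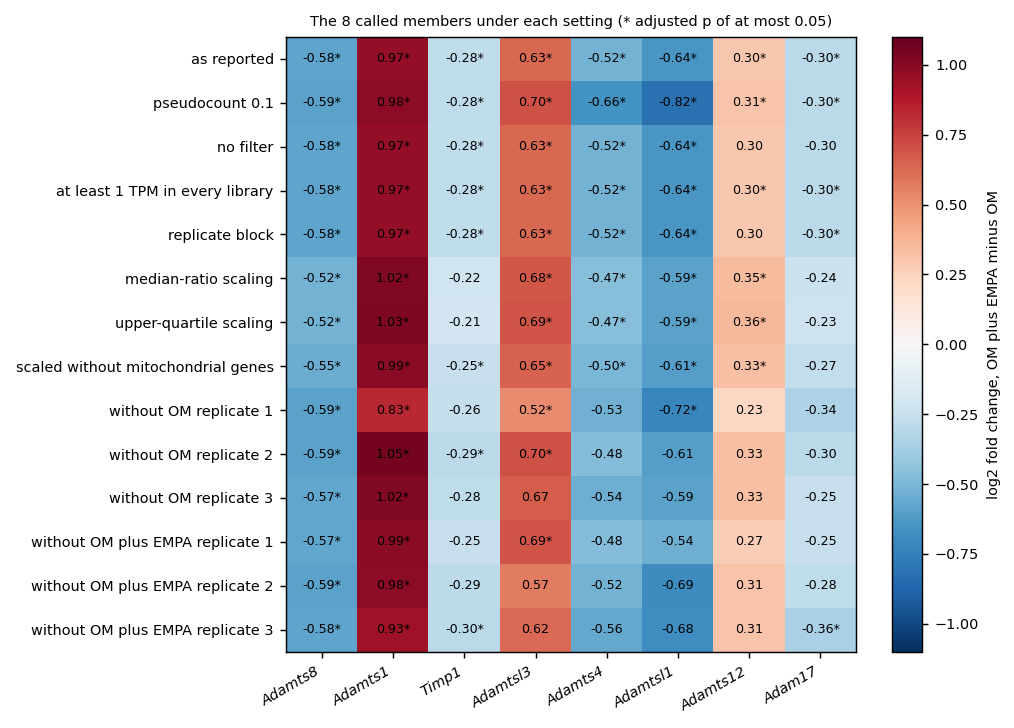
Log2 fold change of the 8 members that passed (columns) under each setting (rows), OM plus EMPA minus OM, with red for higher and blue for lower and a star where the gene passed the test in limma. Adamts1 and Adamts8 carry a star in each row, while Adam17, Adamts12, Adamts4, Adamtsl1 and Timp1 carry none in most of the rows with 1 library left out.

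Proteins that ADAM enzymes release from the cell surface were looked at as a list, chosen with earlier results of these data known. Of 21 tested genes 1 rose and 7 fell, against 2.06% of all tested genes higher and 4.86% lower. The median log2 fold change of the list was -0.15, and 2 rose and 7 fell under median-ratio scaling. The genes that fell included the chemokines Cx3cl1 and Cxcl16, the cytokine Tnf and the adhesion receptors Cd44 and Icam1. Cx3cl1 was at 21.8, 15.7 and 22.2 TPM in OM plus EMPA libraries, against 83.8, 60.3 and 66.6 TPM in OM libraries (log2 fold change -1.77, adjusted p = 0.00206 from limma). Cd44, the hyaluronan receptor, fell by 0.43 (adjusted p = 0.00481 from limma). Tgfa, an EGF receptor ligand released by ADAM17, was the 1 gene of the list that rose, at 81.7, 84.6 and 72.1 TPM against 51.1, 61.5 and 54.8 TPM (log2 fold change 0.50, adjusted p = 0.014 from limma). Vcam1 and Notch2, at -0.03 and -0.01, did not pass. The summed level of the list was 3467 to 3575 TPM with empagliflozin and 4003 to 4091 TPM in OM.

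Of 15 tested genes that activate, carry or restrain metalloproteases, 0 rose and 2 fell by limma, against 2.06% and 4.86% of all tested genes. At an unadjusted p under 0.05, a cut that 24.1% of all tested genes passed, 3 were higher and 5 lower. The median log2 fold change was -0.04. Rhbdf2, which encodes the protein iRhom2 that brings ADAM17 to the cell surface, was at 22.6, 18.2 and 18.8 TPM against 28.4, 25.9 and 25.1 TPM. It fell by 0.40 (adjusted p = 0.0411 from limma) and, like Adam17, did not pass under median-ratio scaling (adjusted p = 0.0558 from limma). Tfpi2, a secreted inhibitor of serine proteases that protects matrix, was at 69.9, 68.8 and 73.8 TPM against 91.6, 91.5 and 91.5 TPM and fell by 0.37 (adjusted p = 0.00459 from limma). Furin, which activates many ADAM and ADAMTS proenzymes, had a log2 fold change of -0.21 (adjusted p = 0.0568 from limma). Reck, a membrane-anchored MMP inhibitor, was at 132, 111 and 129 TPM against 135, 124 and 134 TPM, with no call.

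In the plasminogen system, whose product plasmin activates several pro-MMPs, 0 of 8 tested genes rose and 3 fell by limma, with a median log2 fold change of -0.18. Of all tested genes 2.06% rose and 4.86% fell. At an unadjusted p under 0.05 the counts were also 0 and 3, against 6.42% and 17.6% of all tested genes. Serpine2, the inhibitor protease nexin-1, was at 33.1, 30.6 and 39.0 TPM against 92.4, 70.4 and 86.1 TPM and fell (log2 fold change -1.25 with an SE of 0.12, limma adjusted p = 0.00249). The activator Plat and the inhibitor Serpinb2 fell by 0.55 and 1.09 (adjusted p = 0.029 and 0.014 from limma). Thus an activator and inhibitors were among the genes that fell.

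Among 20 tested matrix substrates of ADAMTS and MMP enzymes 0 rose and 4 fell by limma, against 2.06% and 4.86% of all tested genes. At an unadjusted p under 0.05 there were 6 higher and 5 lower, against 6.42% and 17.6% of all tested genes. The median log2 fold change of the list was 0.09. Dcn, the small proteoglycan decorin, Postn, Nid2 and Tfpi2 fell, by 0.39, 0.52, 0.51 and 0.37. Under median-ratio scaling 1 rose (Col4a2, named after its value was seen) and 3 fell. Vcan, the proteoglycan versican that Adamts1 cuts, was at 268, 258 and 287 TPM in OM plus EMPA libraries, against 296, 303 and 316 TPM in OM libraries. These did not overlap and Vcan did not pass (log2 fold change -0.17, adjusted p = 0.0896 from limma). Of 9 tested metalloproteases of other families, such as Bmp1, the procollagen C-proteinase, and Ece1, the endothelin-converting enzyme, 0 passed in limma, 0 had an unadjusted p under 0.05, and 0 passed under median-ratio scaling.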

How the data were processed

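RNA-seq values of 3 OM plus EMPA and 3 OM samples of primary rat VSMCs were analysed. The authors deposited TPM per sample for 13526 genes, 11889 of them with a symbol. Per the submitters' processing notes the tools included RSEM, HISAT2 2.0.5, fastp and DESeq2, with no roles given. Not given in the sources used here is the genome build. The table's fold changes and p-values of the authors' own comparison, and a deposited table of a part of its rows, were not used. For 0 columns was the sample unknown.

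TPM keep no record of depth, and a gene that rises strongly lowers all others. Limma was run on log2(TPM + 1) with the group as its only term and a variance trend, over the 12564 genes averaging 1 TPM or more, with 4 residual and 3.8 prior degrees of freedom, and tested on simulated data.

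Members and lists were chosen with earlier results of these data known. Named genes are all called members, the 4 most abundant and the 2 with the largest change of each family, well-known members, and up to 4 called genes of each list. The other members were added so that each is accounted for, and Furin, Reck, Vcan, Comp, Vcam1, Notch2, Bmp1, Ece1 and Col4a2 were added after their values were seen. Of the markers, Acta2, Tagln, Cd68, Cd14, Fcer1g and Erg are named, and Tpm1, Tpm2, Mylk, Smtn, Myh11, Scara5 and Pdgfra were added after their values were seen. Roles within families are textbook groupings written after the values were seen. Protein sequences were not used here. Alternatives were a pseudocount of 0.1, other filters, a replicate block, 3 other scalings, other thresholds and each library left out. Software comprised limma 3.58.1 (R 4.3.3), and numpy 2.4.6, pandas 2.3.3 and matplotlib 3.10.9 (Python 3.11.15).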

Additional observations from a re-analysis of the deposited data

How the results depend on the processing

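The counts of called genes moved with the threshold, the scaling, the block and the number of libraries. Against 3 higher and 5 lower members, 6 and 3 were called under median-ratio or upper-quartile scaling, 1 and 1 at an adjusted p of 0.01, and 2 and 1 at 1.5-fold. With 1 library left out 1 to 3 were higher and 1 to 3 lower. Scaled without mitochondrial genes, 4 members were higher, with Adam9 (adjusted p = 0.0465 from limma) added. Under this scaling 4 were lower, without Adam17 (adjusted p = 0.0764 from limma), and over all genes 307 were higher and 489 lower. Over all genes, 259 were higher and 611 lower, against 390.0 and 381 under median-ratio scaling, 403 and 384 under upper-quartile scaling, 35 and 159 at an adjusted p of 0.01, and 66 and 183 at 1.5-fold. Fits without 1 library called 80 to 216 higher and 245 to 438 lower. The scalings moved the median log2 fold change of all genes from -0.05 to at most 0.00. The ratio of summed levels moved beyond its replicate spread only under upper-quartile scaling, to 1.12 for Adamts (from 1.08) and 0.866 for Timp (from 0.829). Signs were compared over all settings only for the members named by rule. Among these they turned for genes with no call, namely Adam10 (0.01 and 0.02 under median-ratio and upper-quartile scaling), Mmp19 (0.00 and 0.01) and Mmp2 (0.01 without OM plus EMPA replicate 2, with -0.14 as the lowest value over the libraries left out). Of the other members Mmp24, just below 0 as reported, turned too (0.04 under both scalings). The cause of these changes was not tested, but each fit without a library has fewer samples. With the replicate block 5 members were higher and 8 lower, which left out Adamts12 (adjusted p = 0.0502 from limma) and included the other 7 called without it. The block also raised the calls over all genes, to 449 higher and 951 lower. In the related lists 29 genes were called with the block against 16 without it (10 to 14 with 1 library left out). These lists are the ADAM-released proteins, metalloprotease control, plasminogen system, matrix substrates and other metalloproteases. They held 21, 15, 8, 20 and 9 tested genes, with Tfpi2 in both the control and the substrate list. All settings of the count of called list genes were chosen after seeing the data. Same-numbered samples of the groups deviated together weakly (correlations 0.098, 0.162 and 0.058). Each sample correlated best with its own number, against -0.12 to 0.015 between different numbers. The labels do not say whether the numbers mark pairs, so the block is given as an alternative only.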
